A study of Mus musculus with 2 samples.

Results

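This account covers 7 genes that are commonly read as marks of alternatively activated macrophages: the lectin and scavenger receptor genes Mrc1, Cd163, Clec10a and Mgl2, the folate receptor gene Folr2, and the genes of the secreted proteins Chil3 and Retnla. They were taken by symbol from the gene list of the deposited tables, and all 7 symbols were present among 32285 genes. The tables come from subcutaneous tumours grown in mice from 4T1, a mouse mammary carcinoma line. One single-cell library came from mice treated with AIE COF, a covalent organic framework used for phototherapy, and was collected on day 7 after the phototherapy, and 1 library came from mice given PBS. The labels give the strain of both as C57BL/c and do not say how many animals or tumours entered a suspension. With 1 library per treatment there is no replicate check, no test and no p-value, and the 95% intervals given with each value cover counting error only.

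Macrophages exposed to interleukin 4 or interleukin 13 signal through the IL-4 receptor and the transcription factor STAT6 and switch on a set of genes that includes lectins, chitinase-like proteins and resistin-like proteins. Mrc1 encodes the mannose receptor CD206, Clec10a and Mgl2 encode the macrophage galactose-type lectins, and Chil3 and Retnla encode the secreted proteins also known as Ym1 and Fizz1. Cd163 encodes the receptor for haemoglobin bound to haptoglobin and Folr2 encodes folate receptor beta, and both are known from resident macrophages. Several of these genes also have other sources, since Chil3 is known from monocytes and neutrophils, and the galactose-type lectins from dendritic cells.

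The phototherapy library held 115576457 UMIs, counts of distinct tagged RNA molecules, over 10002 barcodes, and the PBS library 145045294 UMIs over 8962 barcodes. After filtering, 8619 phototherapy and 7864 PBS cells remained, with median depths of 3884 and 6341 UMIs, and 27 barcodes occurred among the retained cells of both libraries. Cells were grouped without using the 7 genes, and groups were named from other marker genes. Myeloid cells were 26.1% of phototherapy cells and 25.2% of PBS cells, but they held 13.2% of the UMIs in the phototherapy library and 7.78% in the PBS library. They comprised 1289 and 918 macrophage-like cells, 281 and 141 monocyte-like cells, 113 and 110 conventional-dendritic-like cells, 25 and 8 plasmacytoid-dendritic-like cells, 45 and 22 mature-dendritic-like cells, and 500 and 781 cells without a name. Most other UMIs, 81.3% in the phototherapy library and 89.4% in the PBS library, lay in cells low in the leukocyte gene Ptprc, and the epithelial gene Epcam stood at 0.54 CPM in these, so they are named by Ptprc alone.

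In the whole libraries the mannose receptor, the galactose-type lectins and Chil3 had higher summed levels after phototherapy, while Folr2 and Retnla had not. Mrc1 had 2226 UMIs in the phototherapy library and 1085 in the PBS library, or 21.7 and 8.56 CPM (the UMIs of a gene scaled to a common total over the cells summed), a log2 ratio of 1.34 (1.24 to 1.45). Chil3 had 1819 and 886 UMIs, or 17.7 and 6.99 CPM, with a log2 ratio of 1.34 (1.23 to 1.46). The libraries thus stood 2.53-fold apart for Mrc1 and 2.54-fold for Chil3, and neither interval reached 0. With every cell given equal weight in place of every UMI, the log2 ratio of Mrc1 was 0.42 and that of Mgl2 0.088, both under the 1.5-fold threshold, while Chil3 stood at 1.21 and Clec10a at 0.87.

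The lectin pair and the remaining genes had far fewer UMIs. Clec10a had 116 UMIs in the phototherapy library and 62 in the PBS library (log2 ratio 1.21, 0.75 to 1.68), and Mgl2 had 112 and 75 (0.88, 0.45 to 1.32). Folr2 had 36 and 57 UMIs (-0.36, -1.0 to 0.27) and Retnla 32 and 40 (-0.017, -0.74 to 0.69), so counting error covers no difference for these genes. Cd163 had 16 and 10 UMIs, too few for a ratio under the minimum of 50 UMIs over both libraries. Of the 6 genes above that minimum 4 were at least 1.5-fold higher and 0 were at least 1.5-fold lower after phototherapy, where 8.50% of all 15629 genes measured were higher and 4.89% lower. The median log2 ratio was 1.05 over these 6 genes and 0.0099 over all genes measured. A sum over a whole library cannot tell more cells of a type from more RNA per cell, and the share of UMIs in myeloid cells moved the same way as these 4 genes. Among myeloid cells together the log2 ratios were 0.65 for Mrc1 (0.54 to 0.77), 0.55 for Chil3 (0.43 to 0.67), 0.48 for Clec10a (0.0059 to 0.98) and 0.079 for Mgl2 (-0.38 to 0.55). Of the 5 genes measured there 1 was at least 1.5-fold higher, Mrc1, and 1 lower, Retnla, where 3.0% of 10917 genes were higher and 7.33% lower.

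**Figure D1:**
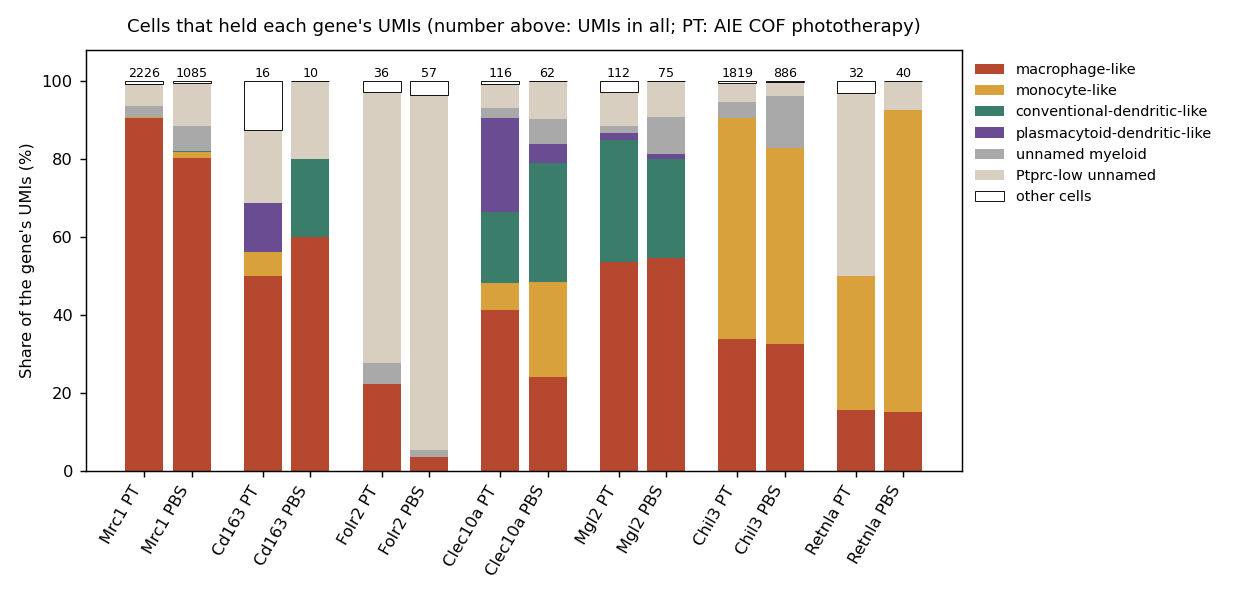
Share of each gene's UMIs, in percent, that lay in each cell class, with AIE COF phototherapy (PT) left of PBS and the number of UMIs above each bar. Mrc1 lay mostly in macrophage-like cells (90.4% and 80.4%), Chil3 in monocyte-like cells (56.7% and 50.3%) and Folr2 in Ptprc-low cells (69.4% and 91.2%). Ptprc-low cells held 81.3% and 89.4% of the UMIs of all genes.

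The 7 genes lie on 6 chromosomes of the GRCm38 build, with Mgl2 (chr11:70130329-70137550) and Clec10a (chr11:70156197-70170834) side by side on the plus strand of chromosome 11. The others are Mrc1 (chr2:14229392-14332057, plus), Chil3 (chr3:106147554-106167564, minus), Cd163 (chr6:124304656-124330527, plus), Folr2 (chr7:101839988-101857194, minus) and Retnla (chr16:48842551-48844461, plus). All are annotated as protein-coding in GENCODE M21. Upstream sequence from RefSeq (GRCm38.p6) was matched for 6 of the 7 by symbol. The stretches before the start sites of Mrc1, Chil3 and Retnla are shown because Mrc1 and Chil3 carried most of the UMIs while Retnla, a textbook companion of Chil3, was nearly unread. Each is written 5′ to 3′ on its gene's strand, as far as the first annotated base, and capitals mark matches on either strand to TTC and GAA set 4 bases apart (the STAT6 type), TTC and GAA set 3 bases apart (the general STAT type) or GAGGAAGT (a PU.1 type). The windows are chr2:14229164-14229391 for Mrc1 (plus strand), chr3:106167565-106167814 for Chil3 (minus strand) and chr16:48842359-48842550 for Retnla (plus strand).
Mrc1: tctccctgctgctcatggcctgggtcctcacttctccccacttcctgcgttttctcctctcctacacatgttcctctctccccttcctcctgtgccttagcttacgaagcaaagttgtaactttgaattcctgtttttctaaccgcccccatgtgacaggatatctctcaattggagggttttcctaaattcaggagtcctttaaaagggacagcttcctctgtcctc
Chil3: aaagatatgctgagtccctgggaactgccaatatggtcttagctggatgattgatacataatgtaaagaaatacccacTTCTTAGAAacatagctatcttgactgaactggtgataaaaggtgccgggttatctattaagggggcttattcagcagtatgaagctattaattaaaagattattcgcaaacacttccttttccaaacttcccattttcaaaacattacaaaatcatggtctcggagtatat
Retnla: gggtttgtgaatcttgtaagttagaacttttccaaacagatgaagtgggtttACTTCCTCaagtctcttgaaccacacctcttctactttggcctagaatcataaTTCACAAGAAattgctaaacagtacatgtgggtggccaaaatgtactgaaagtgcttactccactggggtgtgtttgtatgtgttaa
Among the 250 bases before the RefSeq start, Retnla held the STAT6-type word TTCACAAGAA and the PU.1-type word, Chil3 held the general STAT-type word TTCTTAGAA, and Mrc1 held none of the 3, nor did Cd163, Folr2 or Mgl2. Of all 32851 such windows in the RefSeq table, 5.85% held the STAT6-type word, 7.02% the general STAT-type word and 2.44% the PU.1-type word. A match describes letters and not a bound site, and no match overlapped another in these windows.

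Mrc1 marked macrophage-like cells. It stood at 187 CPM (179 to 195) in phototherapy and 125 CPM (117 to 133) in PBS macrophage-like cells, against 8.30 CPM (3.58 to 16.4) and 26.1 CPM (14.9 to 42.4) in monocyte-like cells. In conventional-dendritic-like cells it had 2 phototherapy UMIs and 1 PBS UMI, and in plasmacytoid-dendritic-like cells 0 in both, where 0 of 25 and 0 of 8 cells limit little. After every cell was thinned to 1000 UMIs, 13% of 1273 phototherapy and 9.60% of 906 PBS macrophage-like cells had an Mrc1 UMI (unthinned 40.7% and 32.5%, with 16 and 12 cells too shallow to thin). In B-like cells, which should lack the gene, the thinned shares were 0.513% of 779 phototherapy cells and 0 of 304 PBS cells, which allows up to 0.987% (unthinned 0.667% and 0.548%, median depths 1155 and 1483 UMIs, against 7375 and 6729.5 UMIs in macrophage-like cells). The order of levels was macrophage-like, unnamed myeloid (79.4 and 51.9 CPM), then monocyte-like in both libraries, and in the unnamed cells the log2 ratio was 0.61 (0.09 to 1.13). Of the 2 genes measured in the unnamed cells, Mrc1 and Chil3, 1 was at least 1.5-fold higher and 0 were lower, where 6.53% of 5679 genes were higher and 6.81% lower. The intervals of these neighbours did not overlap in either library, apart from unnamed myeloid (40.5 to 65.4) and monocyte-like cells of the PBS library.

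**Figure D2:**
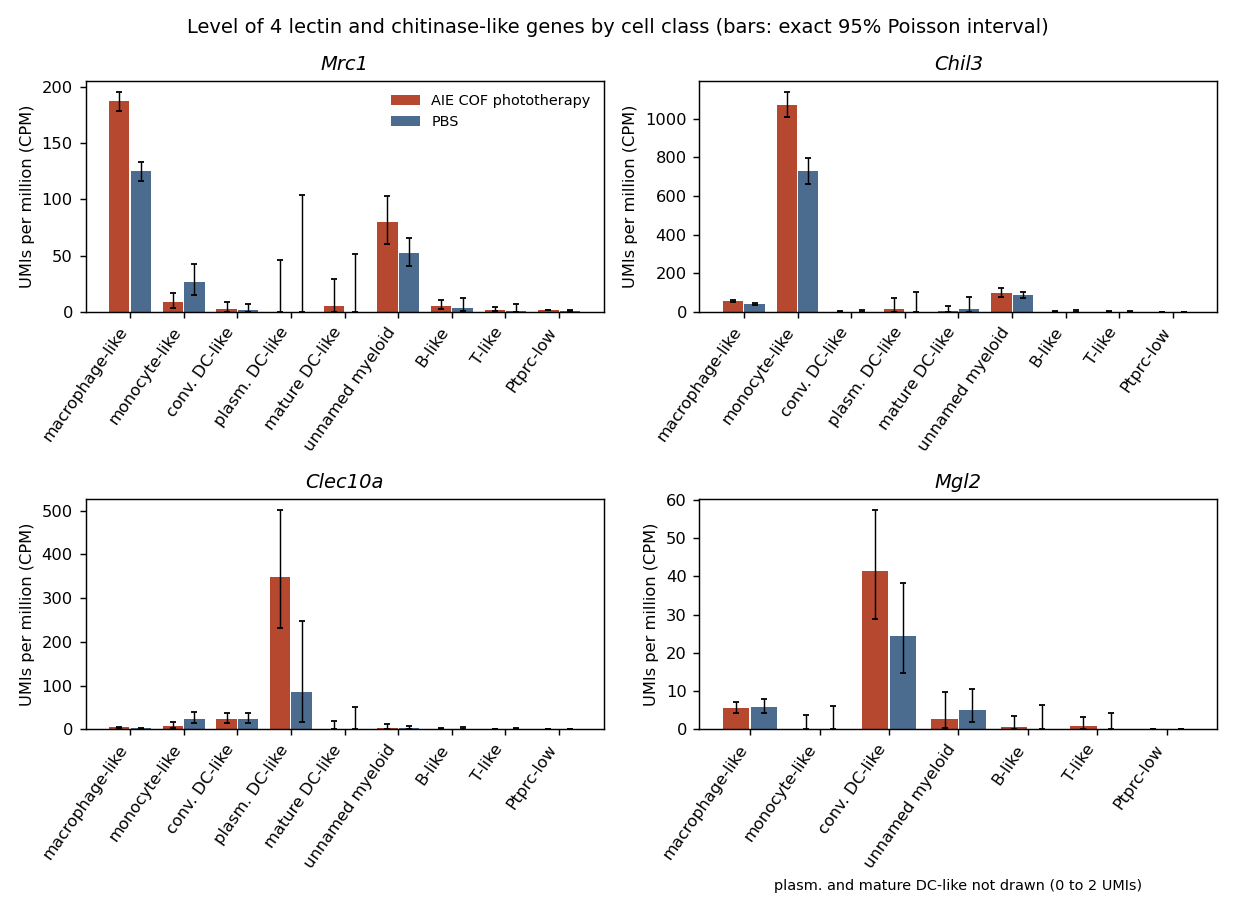
Level in CPM of Mrc1, Chil3, Clec10a and Mgl2 by cell class, with AIE COF phototherapy left of PBS and exact 95% Poisson intervals. Mrc1 peaked in macrophage-like cells (187 and 125 CPM) and Chil3 in monocyte-like cells (1071 and 727 CPM). Clec10a in plasmacytoid-dendritic-like cells (348 and 84.6 CPM) and Mgl2 in conventional-dendritic-like cells (41.3 and 24.5 CPM) rest on few UMIs, with wide intervals. Mgl2 is not drawn for plasmacytoid-dendritic-like and mature-dendritic-like cells.

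Mrc1 differed among macrophage-like cells more than it differed between treatments. In the sub-cluster led by Cp and Ccl8, a chemokine gene, it stood at 318 CPM in phototherapy and 205 CPM in PBS cells. In the cycling sub-cluster, with Mki67 at 523 CPM over both libraries, it stood at 244 and 140 CPM, and in the sub-cluster led by Pdgfc and with Vcam1 among its leading genes at 220 and 141 CPM. These were the 3 highest levels among the 6 macrophage-like sub-clusters in both libraries, and the intervals of the cycling and Pdgfc sub-clusters overlapped. Cells led by Mmp12, Gpnmb and Arg1 had 154 and 92.7 CPM, and cells led by interferon-induced genes of the Ifit family 77.6 and 48.8 CPM. Cells with Il1b and Olr1 among their leading genes, in which the class II gene H2-Ab1 reached 6559 CPM, had 39.2 and 35.1 CPM. The highest phototherapy sub-cluster was thus 318 against 39.2 CPM in the lowest, while no sub-cluster differed as much between libraries.

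The phototherapy level of Mrc1 was above the PBS level in each of the 6 macrophage-like sub-clusters. The log2 ratios were 0.81 in cycling cells (0.58 to 1.04), 0.73 in the Mmp12 sub-cluster (0.39 to 1.09), 0.67 in the Ifit sub-cluster (0.06 to 1.30), 0.64 in the Pdgfc sub-cluster (0.44 to 0.85), 0.64 in the Cp sub-cluster (0.33 to 0.94) and 0.16 in the Il1b sub-cluster (-0.58 to 0.93). The interval of the Il1b sub-cluster alone reached 0. The mix of sub-clusters differed, since the Cp sub-cluster held 76 phototherapy and 192 PBS cells and the Mmp12 sub-cluster 323 and 132, while the Pdgfc sub-cluster held 327 and 238. Over all macrophage-like cells the log2 ratio was 0.58 (0.47 to 0.70), just under the 1.5-fold threshold, and 0.67 with the sub-clusters weighted equally.

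**Figure D3:**
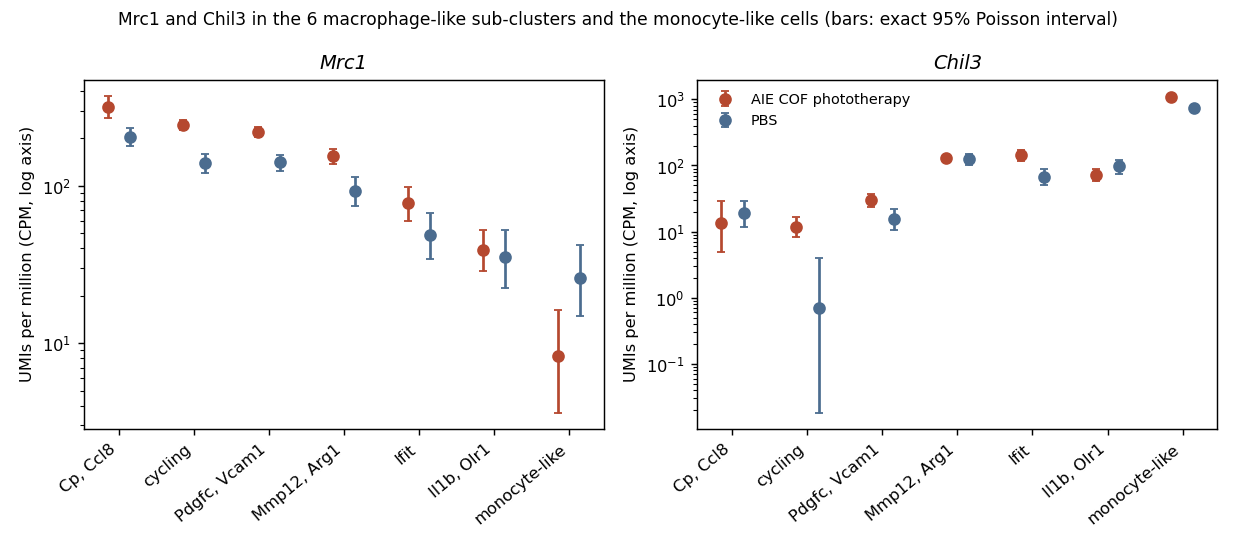
Level of Mrc1 and Chil3 in CPM (log axis) in the 6 macrophage-like sub-clusters, named by leading genes, and in monocyte-like cells, with AIE COF phototherapy left of PBS and exact 95% Poisson intervals. Mrc1 fell away from the Cp and Ccl8 cells (318 and 205 CPM) to monocyte-like cells (8.30 and 26.1 CPM), and Chil3 was highest in monocyte-like cells (1071 and 727 CPM).

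The Mrc1 difference lay in cells of high UMI count. Among macrophage-like cells with 12000 or more UMIs, 253 phototherapy cells had 251 CPM and 162 PBS cells had 140 CPM (log2 ratio 0.84, 0.67 to 1.02). Between 6000 and 12000 UMIs the levels were 156 and 96.5 CPM (0.70, 0.50 to 0.89). Between 3000 and 6000 UMIs the direction was the other way, with 109 CPM in 331 phototherapy cells and 152 CPM in 242 PBS cells (-0.48, -0.80 to -0.16). Under 3000 UMIs the levels were 177 and 183 CPM (-0.051, -0.62 to 0.52). Thinned cells gave a log2 ratio of 0.31 (-0.028 to 0.65), and cells weighted equally 0.17. Whether UMI count per cell reflects cell state or capture was not tested.

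**Figure D4:**
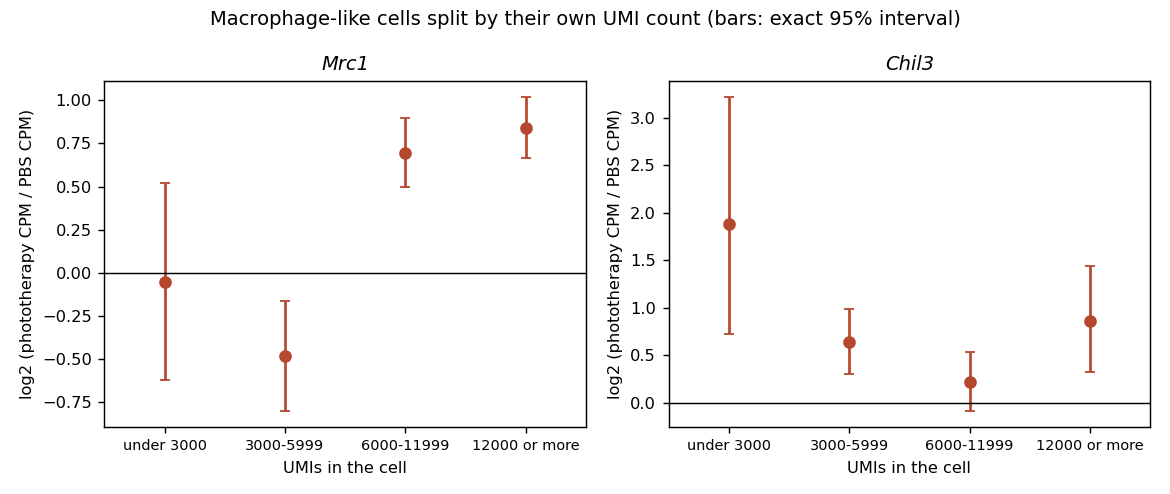
Log2 ratio of the level after AIE COF phototherapy over the PBS level in macrophage-like cells, split by the UMIs of the cell, for Mrc1 and Chil3, with exact 95% intervals. The Mrc1 ratio was 0.84 at 12000 or more UMIs and -0.48 between 3000 and 6000 UMIs, while the 4 Chil3 ratios lay between 0.22 and 1.88.

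Chil3 marked monocyte-like cells, which were led by Hp, Ifitm6 and Plac8. These 281 phototherapy and 141 PBS cells held 1032 and 446 of its UMIs, or 1071 CPM (1007 to 1139) and 727 CPM (661 to 798). The log2 ratio was 0.56 (0.40 to 0.72), a 1.47-fold difference that fell just short of the 1.5-fold threshold. It differed with the UMIs of the cell, at 1.25 (0.73 to 1.83) under 3000 UMIs and 0.60 (0.40 to 0.81) between 3000 and 6000. Between 6000 and 12000 UMIs, in 10 phototherapy and 23 PBS cells, it was -0.25 (-0.72 to 0.21). The part of depth in the ratio was not tested. A Chil3 UMI was found in 44.5% of 265 thinned phototherapy cells (38.4 to 50.7%) and 35.3% of 136 thinned PBS cells (27.3 to 43.9%), against 59.8% and 49.6% unthinned, with 16 and 5 cells too shallow. In T-like cells the thinned shares were 0.274% of 1093 phototherapy cells and 0 of 319 PBS cells, which allows up to 0.940%, and the median T-like cell held 1570 and 2018.5 UMIs where the median monocyte-like cell held 3372 and 4409. Chil3 was 1 gene of 7 measured in this class, so 0 of 1 was at least 1.5-fold higher or lower, where 6.20% of 4358 genes were higher and 6.86% lower.

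The summed level of neutrophil markers was higher with Chil3 in monocyte-like cells, though not for each marker. It was 1024 CPM in phototherapy and 130 CPM in PBS cells, with a UMI of 7 and of 6 of the 8 markers. S100a8 had 486 UMIs in phototherapy and 25 in PBS cells and S100a9 396 and 10, and 7 phototherapy and 6 PBS cells held a UMI of either gene. Without these cells Chil3 stood at 1037 and 677 CPM, a log2 ratio of 0.62 (0.45 to 0.79), so the difference was as large without them. In the class as a whole the granulocyte receptor genes Csf3r and Cxcr2 had 41 and 2 UMIs in 281 phototherapy cells and 30 and 0 in 141 PBS cells. Mmp8, a neutrophil collagenase gene, had 39 phototherapy and 10 PBS UMIs left once the cells with S100a8 or S100a9 were taken out, so a marker difference remained there, and its part in the Chil3 difference was not tested.

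Within macrophage-like cells Chil3 was highest, in both libraries, in the 3 sub-clusters in which Mrc1 was lowest. It had 142 CPM in phototherapy and 67.7 CPM in PBS cells of the Ifit sub-cluster, 128 and 125 CPM in the Mmp12 sub-cluster and 72.6 and 96.6 CPM in the Il1b sub-cluster. In the Pdgfc sub-cluster it had 29.7 and 15.5 CPM, in the Cp sub-cluster 13.3 and 19.0 CPM, and in cycling cells 37 UMIs and 1 UMI. The interval of the ratio lay above 0 in the Ifit (log2 ratio 1.07, 0.58 to 1.58) and Pdgfc (0.94, 0.34 to 1.57) sub-clusters and spanned 0 in the Mmp12 (0.036, -0.28 to 0.36) and Il1b (-0.41, -0.89 to 0.072) sub-clusters. Over all macrophage-like cells Chil3 had 57.0 CPM and 41.2 CPM, a log2 ratio of 0.47 (0.26 to 0.68). That value was -0.035 with the libraries clustered apart, which put the monocyte-like ratio at 1.64. With unnamed macrophage-marked sub-clusters counted in, the macrophage-like ratio was 0.25. Unnamed myeloid cells held 72 phototherapy and 116 PBS Chil3 UMIs, or 98.5 and 84.7 CPM (log2 ratio 0.22, -0.23 to 0.65). Their sub-cluster led by Prss12 and Ly6i had 268 CPM over both libraries. The highest macrophage-like sub-cluster, that of Mmp12, had 127 CPM. A further 92 phototherapy and 32 PBS UMIs lay in Ptprc-low cells, 48 of the phototherapy UMIs in 1 cell.

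Clec10a, a lectin receptor for galactose and N-acetylgalactosamine, was shared among myeloid classes, and in the phototherapy library it was densest in plasmacytoid-dendritic-like cells. In the 25 phototherapy and 8 PBS cells of that class, led by Siglech, it had 28 UMIs and 3 UMIs, or 348 CPM (231 to 502) and 84.6 CPM (17.5 to 247). A UMI was found in 10 of the 25 cells (40%) and in 2 of the 8 (25%). The 2 intervals overlapped, and in the PBS cells macrophage markers summed to 5558 CPM, against 211 CPM in the phototherapy cells. Conventional-dendritic-like cells had 21 and 19 Clec10a UMIs, or 24.8 and 24.5 CPM, a log2 ratio of 0.015 (-0.95 to 0.99), and in the PBS library their interval (14.8 to 38.3) overlapped that of the plasmacytoid-dendritic-like cells. Mature-dendritic-like, B-like and T-like cells had 0 UMIs of Clec10a in both libraries. In mature-dendritic-like cells the intervals reached 19.2 CPM in phototherapy and 51.2 CPM in PBS, the latter above the PBS conventional-dendritic-like level.

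In macrophage-like cells Clec10a had 48 UMIs in 35 phototherapy cells and 15 UMIs in 14 PBS cells, or 4.45 CPM and 2.14 CPM, a log2 ratio of 1.05 (0.19 to 2.0). Of the 4 genes measured there (Mrc1, Chil3, Clec10a and Mgl2) 1 was thus at least 1.5-fold higher and 0 were lower, where 3.52% of 10151 genes were higher and 6.33% lower. The call did not hold under every setting: Clec10a stood at 0.56 under the stricter cell filter, 0.57 with libraries clustered apart and 0.53 with the 7 genes among the variable genes, all under the 1.5-fold threshold. Under the same settings Mrc1 passed it, at 0.73, 0.79 and 0.62. After thinning only 4 phototherapy UMIs and 1 PBS UMI remained, which is too few to compare shares.

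Mgl2, the neighbouring copy of the galactose-type lectin gene, lay in conventional-dendritic-like and macrophage-like cells. Conventional-dendritic-like cells had 35 phototherapy and 19 PBS UMIs, or 41.3 and 24.5 CPM, a log2 ratio of 0.75 (-0.093 to 1.64). The class held the gene in 12 of 113 and 11 of 110 cells, 10 of the 35 phototherapy UMIs lay in 1 cell, and the ratio was -0.33 with cells weighted equally. Mgl2 was the 1 of the 7 genes measured in this class, so 1 of 1 was at least 1.5-fold higher, where 7.24% of 4504 genes were higher and 8.55% lower. Macrophage-like cells had 60 and 41 UMIs, or 5.57 and 5.86 CPM (log2 ratio -0.074, -0.67 to 0.54), and 10 of the PBS UMIs lay in 1 cell. In the cycling sub-cluster Mgl2 had 28 phototherapy UMIs and 4 PBS UMIs. In monocyte-like cells it had 0 UMIs in both libraries, where Clec10a had 8 phototherapy and 15 PBS UMIs. The intervals of Mgl2 there reached 3.83 CPM in phototherapy and 6.01 CPM in PBS cells, the latter above the PBS macrophage-like level. Clec10a and Mgl2 share sequence, since 20.4% of the 50-base words in the last 500 bases of the longest Clec10a transcript also occur in Mgl2 transcripts, though 0 of those in the last 500 bases of Mgl2 occur in Clec10a, so the split of Clec10a reads between the pair is uncertain.

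Cd163 was found in 11 phototherapy and 4 PBS cells, which lay in several classes. Plasmacytoid-dendritic-like cells held 2 phototherapy UMIs in 2 of 25 cells, or 24.8 CPM (3.01 to 89.7). The level in phototherapy macrophage-like cells was 0.74 CPM (0.32 to 1.46). A conventional-dendritic-like PBS cell and a T-like phototherapy cell held 2 UMIs each, and a monocyte-like phototherapy cell 1. Ptprc-low cells held 3 phototherapy and 2 PBS UMIs. Macrophage-like cells held 8 of 16 phototherapy UMIs, in 4 cells, and 6 of 10 PBS UMIs, in 1 cell. That PBS cell had 1427 UMIs in all, 17 of them of Mrc1, 2 of Clec10a and 1 each of Lyve1 and Cbr2, which are marks of resident macrophages. In the phototherapy library 2 of the 4 macrophage-like cells with Cd163 also held Lyve1, against 0.0778% of the other macrophage-like cells, and 3 of the 4 held Cbr2, against 0.856% of the others. The resident-type genes thus occurred together in a handful of cells, which were picked for their Cd163.

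Most Folr2 UMIs lay outside the myeloid cells. Ptprc-low cells held 25 of its 36 phototherapy UMIs (69.4%) and 52 of its 57 PBS UMIs (91.2%). These cells also held 81.3% and 89.4% of the UMIs of all genes. The Folr2 level there was 0.30 and 0.46 CPM, against 0.74 and 0.29 CPM in macrophage-like cells. Macrophage-like cells held 8 and 2 Folr2 UMIs, in 5 and 2 cells. At such counts no myeloid ratio was measured. The antisense gene Gm10602 lies over the last 500 bases of Folr2, and whether the counting used strand is not stated, so the values of Folr2 are uncertain. Gm10602 itself had 38 phototherapy and 51 PBS UMIs over all barcodes.

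Retnla lay in single cells. It had a UMI in 9 phototherapy and 6 PBS cells, and 1 monocyte-like PBS cell of 1646 UMIs held 31 of the 40 PBS UMIs (77.5%). In the phototherapy library 1 monocyte-like cell of 8837 UMIs held 11 of 32 UMIs (34.4%), and 6 Ptprc-low cells held a further 15, of which 4 cells in 1 cluster also held UMIs of the macrophage gene C1qa. The ratio among myeloid cells together, a log2 value of -1.67 (-2.62 to -0.79), rests on that PBS cell. Neither of those monocyte-like cells held a Chil3 UMI.

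The relatives of Chil3 and Retnla had few UMIs, and several were nearly absent. Chil4, the closest copy of Chil3, had 1 phototherapy UMI and 0 PBS UMIs, and 17.1% of the 50-base words in the last 500 bases of Chil3 also occur in Chil4, so reads that fit both may be missing. Chil1 had 7 phototherapy and 22 PBS UMIs, and the resistin-like gene Retnlb 0 in both. Retnlg, a resistin-like gene of neutrophils, had 17 and 4 UMIs, of which 13 and 1 lay in monocyte-like cells. Of 10 listed chitinase and resistin genes 3 were measured in the whole libraries. They were Retn (36 phototherapy and 33 PBS UMIs), Chil5 (38 and 37) and Ctbs (52 and 73). Of these 0 were at least 1.5-fold higher or lower, where 8.50% of all genes were higher and 4.89% lower.

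Mrc1 and Chil3 were rarely found in the same macrophage-like cell. Of 165 thinned phototherapy cells with Mrc1, 1.82% also had Chil3, against 6.05% of the cells without Mrc1. In the PBS library 0 of 87 cells with Mrc1 had Chil3, where 34 of all 906 thinned cells did. The monocyte gene Ly6c2 was present in 2.42% of phototherapy cells with Mrc1 and 13.7% of those without, and the complement gene C1qa in 78.2% and 62.4%. In the PBS library the shares were 4.6% and 11.5% for Ly6c2 and 78.2% and 66.5% for C1qa. Chil3 cells were the other way round, since 29 of 70 phototherapy cells with Chil3 also had Ly6c2 and 28 of 70 had C1qa, and of 34 PBS cells with Chil3 11 had Ly6c2 and 13 had C1qa. The counts describe cells of 1 library each and carry no test.

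The genes whose levels over 22 clusters in the 2 libraries were most like those of each member differed from member to member. For Mrc1 they were Fcrls (Pearson r 0.975), Gdf3 (0.959) and Olfml3 (0.954), and for Chil3 the coagulation factor gene F10 (0.957), Thbs1 (0.942) and Trem3 (0.934). For Mgl2 they were Hepacam2 (0.866), the chemokine gene Ccl17 (0.865) and Tspan33 (0.850), and for Clec10a Naaa (0.802), Ppm1m (0.790) and Mcemp1 (0.786). For Retnla they were Hp (0.818), Adora2b (0.789) and Adgre4 (0.777), and for Folr2 Evi5l (0.707), 4933408B17Rik (0.707) and Gm15155 (0.621). Between members the highest r was 0.640, for Chil3 with Retnla, while Mrc1 with Chil3 stood at 0.498 and Clec10a with Mgl2 at 0.636. The Retnla level of the monocyte-like cluster came from 1 cell per library, with 11 phototherapy and 31 PBS UMIs. Neither of these cells held a Chil3 UMI. The r values of Retnla thus rest on few cells. Each value is over 44 points of log2(CPM + 10), and points of 1 library share its depth. Only clusters of at least 50 cells in both libraries entered. This left out the plasmacytoid-dendritic-like cells (25 phototherapy and 8 PBS), in which Clec10a was densest in the phototherapy library, and the mature-dendritic-like cells. Folr2 stood at 0.30 phototherapy and 0.46 PBS CPM in Ptprc-low cells, far under the 10 CPM added, so its r values rest on very low levels.

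Most measured genes of IL-4 and IL-13 signalling were at like levels in macrophage-like cells of both libraries, with a median log2 ratio of 0.017, against -0.0069 over all genes measured. Of the 10 measured 0 were at least 1.5-fold higher and 2 were lower, where 3.52% of all genes measured were higher and 6.33% lower. The lower genes were the nuclear receptor gene Pparg (log2 ratio -0.85, -1.14 to -0.56) and the inhibitor gene Socs1 (-0.71, -1.11 to -0.32), and Jak3 followed at -0.37 (-1.10 to 0.37). Il4 had 11 phototherapy and 12 PBS UMIs in macrophage-like cells and Il13 had 1 UMI and 0. In the whole libraries 3 of 13 were higher and 0 lower, namely Irf4 (1.56), Il4ra (0.72) and Socs3 (0.67), where 8.50% of all genes were higher and 4.89% lower.

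Other genes of alternative activation split in macrophage-like cells. Of 15 measured 1 was at least 1.5-fold higher and 3 were lower, with a median log2 ratio of 0.18, against 3.52% of all genes higher and 6.33% lower. Ccl17, a ligand of CCR4, stood at -1.35 (-2.16 to -0.56), the E-cadherin gene Cdh1 at 1.12 (0.38 to 1.92) and the transglutaminase gene Tgm2 at -0.73 (-0.99 to -0.47). Arg1, the arginase gene, stood at 0.17 (0.06 to 0.28). In the whole libraries 12 of 18 were higher and 0 lower, led by Ccl17 (2.02), Mmp12 (1.25) and Il1rn (1.08), against 8.50% of all genes higher and 4.89% lower.

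Resident-type macrophage genes also split, and the shares of all genes to set beside the counts that follow are 3.52% higher and 6.33% lower in macrophage-like cells and 8.50% and 4.89% in the whole libraries. Of 9 measured in macrophage-like cells 1 was higher, the chemokine gene Pf4 (0.59, 0.54 to 0.65), and 1 lower, F13a1 (-1.01, -1.29 to -0.74), and Selenop followed at -0.49. Of 11 measured in the whole libraries 5 were higher and 0 lower, among them Pf4 (1.47, 1.41 to 1.52) and Cbr2 (0.78, -0.037 to 1.62). Cbr2 had 32 phototherapy and 23 PBS UMIs. Of 11 other macrophage C-type lectins measured in macrophage-like cells 1 was higher, Clec4d (0.76), and 1 lower, Clec4b1 (-1.18). Clec9a stood at -0.54 (-1.11 to 0.026). Of 6 genes of folate and haemoglobin handling measured there 1 was higher, the scavenger receptor gene Cd36 (0.60), and 0 lower.

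**Figure D5:**
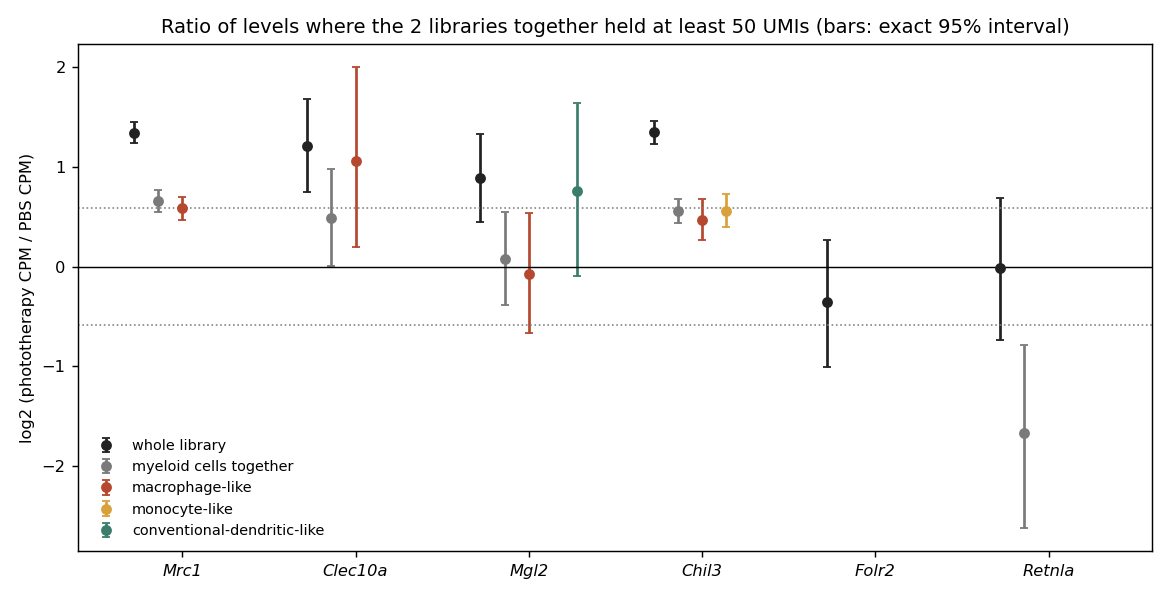
Log2 ratio of the level after AIE COF phototherapy over the PBS level for each gene with at least 50 UMIs over both libraries, by cell group, with exact 95% intervals and dotted lines at 1.5-fold. The ratios of Mrc1 and Chil3 were 1.34 each in the whole libraries and 0.58 and 0.47 in macrophage-like cells.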

How the data were processed

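Per the labels' protocols, the tumours were dissociated on day 7, and libraries came from a MobiDrop MobiCube kit that reads the 3' end of transcripts. STAR and mm10 are named in the submitters' processing notes. The sources used here do not name the counting program, its annotation or its strand setting. The authors deposited raw UMI counts for each gene in each barcode, and the lowest barcode total was 500.

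Barcodes needed 200 genes or more and no more than 20% mitochondrial UMIs, and 694 phototherapy and 569 PBS barcodes with the highest Scrublet scores were removed (0.8% per 1000 barcodes). Leiden clustering (scanpy 1.11.5, 2000 variable genes, 30 components, 15 neighbours, resolution 1.0, both libraries together) was run without the 7 genes, and myeloid clusters were clustered again. To be named for a type, a cluster had to hold over 50% of the type's markers (3 or more), with no other type leading. Each marker held had to stand at 25% or more of its peak level and be seen in 5% or more of the cells. A cluster of low depth also needed a marker of the type among its 10 leading genes. Counts were summed per library and class and given as CPM. Intervals are exact Poisson (levels), Clopper-Pearson (shares) and conditional binomial (ratios). UMIs remain subject to amplification and capture error. A gene was measured with at least 50 UMIs over both libraries, and a limit for 0 cells uses 3 counts. Genes were called at 1.5-fold.

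The genes named are the 7 members, the 3 genes most like each measured member, and up to 3 genes of each list with the largest ratios in the whole library or in macrophage-like cells, and a few others were named as relatives, cell marks or levels after their values were seen. A gene that this rule names is not reported here. The members and lists were chosen with earlier results of these data known. The ratio and its interval were tested on simulated data. No sample column was left out. Overlaps and transcript words come from GENCODE M21. Alternatives are in the closing section, and some were added after seeing the data.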

Additional observations from a re-analysis of the deposited data

Results flagged for a closer look

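Mrc1 and Clec10a had ratios of opposite sign in macrophage-like and monocyte-like cells, and the difference between the classes was not tested. For Mrc1 the monocyte-like value rests largely on 1 PBS cell. Mrc1 had log2 ratios of 0.58 in macrophage-like cells (2013 phototherapy and 872 PBS UMIs), 0.61 in unnamed myeloid cells (58 and 71 UMIs) and -1.65 in monocyte-like cells (8 and 16 UMIs), where 11 of the 16 PBS UMIs lay in 1 cell. Clec10a had log2 ratios of 1.05 in macrophage-like cells (48 and 15 UMIs) and -1.56 in monocyte-like cells (8 and 15 UMIs). All 5 intervals leave out 0, but they count the UMIs of 1 cell as independent, and the monocyte-like values are under the minimum of 50 UMIs.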

How the results depend on the processing

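No paired analysis was possible because there is 1 library per treatment. Of 100 alternative values of 12 ratios, 84 moved by less than the counting interval, 15 moved further and 1 changed sign as a called value, namely Mgl2 in conventional-dendritic-like cells (-0.33 with cells weighted equally, against 0.75). The cause of these shifts was not tested. In the whole libraries the number of genes at least 1.5-fold higher was 4, and 2 with cells weighted equally (Clec10a and Chil3 held, while Mrc1 at 0.42 and Mgl2 at 0.088 lost the call). It was 2 with cells thinned, where 2 genes were still measured (Mrc1 at 0.59, Chil3 at 1.33). In macrophage-like cells it was 1, Clec10a. It was also 1 under the stricter cell filter, with libraries clustered apart and with the 7 genes among the variable genes, but the gene was then Mrc1 and Clec10a stood at 0.56, 0.57 and 0.53, and with cells thinned it was Chil3. It was 2 without doublet removal, with cells weighted equally, at the lower resolution, with ratios centred on the median gene, at the lower UMI minimum, and, added after seeing the data, with sub-clusters weighted equally or unnamed macrophage-marked sub-clusters counted in. In monocyte-like cells it was 0, and 1 with cells weighted equally, thinned, with libraries clustered apart, at the lower resolution, centred, and, added after seeing the data, without the cell with the most UMIs or without cells with S100a8 or S100a9. In conventional-dendritic-like cells it was 1, and the call was lost (0) with cells weighted equally, while it was 0 under the stricter cell filter, thinned, with libraries clustered apart and without the cell with the most UMIs because 0 genes reached the UMI minimum. Mrc1 in macrophage-like cells ranged between 0.17 with cells weighted equally and 0.79 with libraries clustered apart. With cells weighted equally the whole-library log2 ratio of Folr2 was 0.37 and that of Retnla -2.42. The UMIs of Cd163 and Retnla came from a few cells, and what sets that was not tested. Median depths were 1155 and 1483 UMIs in B-like cells, 1570 and 2018.5 in T-like cells and 886.5 and 976 in unnamed myeloid cells. These lie closer to the lowest barcode total of 500 UMIs than the medians of macrophage-like cells (7375 and 6729.5).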
